A study of Mus musculus with 6 samples.

Results

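The exons described here lie in Nrxn2, Cadps, Madd, Exoc1 and Vti1a, genes that act at the presynaptic terminal or in the docking and fusion of vesicles. They were chosen from 3 deposited lists of splicing events that differed between control P19 cells and P19 cells with SFPQ knocked down, by taking each listed interval whose edges matched an exon of these genes. This gave 12 of the 643 distinct events, in 5 of the 579 protein-coding genes with an event. P19 is a mouse embryonal carcinoma line, here transfected with control small interfering RNAs or ones against Sfpq, a paraspeckle protein that binds RNA in the nucleus and was first described as a splicing factor. The 3 control and 3 SFPQ knockdown samples carried no other treatment in the labels, and no source states whether the numbered samples were separate cultures. Each list carries 1 replicate number and gives only positions and event types. The depth behind an event, the level of exon inclusion and the direction of the change are therefore unknown, and "listed" means only that the authors' comparison retained the interval. The genes were picked for having such events, so their presence in the lists is a description and was given no test. The P19 identity and the knockdown itself cannot be checked from positions.

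A synaptic vesicle is brought to the membrane, tethered, primed and then fused by SNARE proteins, and the members act in adhesion at the terminal, at these steps or in related membrane traffic. Neurexins such as Nrxn2 sit in the presynaptic membrane and bind partners across the cleft, with short alternatively spliced segments that change which partners are bound. Cadps primes secretory vesicles, Madd activates Rab3 on vesicles, Exoc1 is the Sec3 subunit of the exocyst that tethers vesicles to the membrane, and Vti1a is a SNARE of the trans-Golgi network and endosomes with a longer, brain-enriched splice form. Very short exons, often called microexons, are known above all from neurons, where they usually keep the reading frame.

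Of the 12 events, 11 were cassette exons (exons included or skipped whole) and 1 was an alternative donor site. All 11 cassette exons were coding, and 7 of them were 27 nt or shorter. These 7 are shown because a reader can see in them the whole of the segment that differs. The capitals are the listed exon and the lower case letters are the adjoining 15 bases of the neighbouring exons in the annotated mRNA (GENCODE M21, GRCm38), 5′ to 3′.
Nrxn2 24 nt: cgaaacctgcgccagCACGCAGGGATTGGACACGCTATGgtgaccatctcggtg
Nrxn2 27 nt: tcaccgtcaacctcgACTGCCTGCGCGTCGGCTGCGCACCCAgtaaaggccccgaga
Cadps 12 nt: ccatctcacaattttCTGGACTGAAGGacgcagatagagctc
Cadps 18 nt: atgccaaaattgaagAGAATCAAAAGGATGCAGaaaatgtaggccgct
Madd 9 nt: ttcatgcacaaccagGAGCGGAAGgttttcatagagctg
Exoc1 21 nt: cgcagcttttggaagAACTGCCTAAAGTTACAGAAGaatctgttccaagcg
Vti1a 21 nt: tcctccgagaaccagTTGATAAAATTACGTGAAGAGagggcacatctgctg

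At the presynaptic membrane, the neurexin gene Nrxn2 (chromosome 19, 6418731 to 6544169, plus strand) had a pair of listed cassette exons. The 24-nt exon at chr19:6463824-6463847 stood in lists 2 and 3 and is exon 7 of 23, where it adds 8 codons at codon 385 of 1703. The 27-nt exon at chr19:6488784-6488810 stood in lists 1 and 3 and is exon 12 of 23, adding 9 codons at codon 790. List 3 thus held both and neither stood in all 3 lists. In the annotation, 3 protein-coding transcripts contain the 24-nt exon and 3 skip it, while 5 contain the 27-nt exon and 1 skips it. The 24-nt exon also has an annotated longer form of 45 nt with the same start, which was not listed. The 2 exons lie 24.9 kb apart, and 2 coding transcripts carry both. They differ in base composition, with 58.3% G and C in the shorter and 74.1% in the longer.

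Another neurexin gene, Nrxn3, had no listed event, although it has an exon at the place of the 27-nt exon of Nrxn2. It is 27 nt long in the annotated coding transcripts and lies between neighbours that are 76.7% identical to those of the Nrxn2 exon over 120 bases. Only 13 of its 27 bases were the same as in Nrxn2. No internal coding exon of 24 nt was found in Nrxn3. The Nrxn3 exon is shown with the bases that differ from Nrxn2 in capitals, for comparison with the 27-nt exon above.
Nrxn3 27 nt (chr12:89354453-89354479): actgTAtCAgGAtAAActgTAACTcca

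In the priming step, Cadps (chromosome 14, 12372563 to 12823079, minus strand) had 4 listed cassette exons, the most distinct events of any gene in the lists. Of the 579 genes with an event, 54 had 2 or more distinct events and 7 had 3 or more. Among the 4 Cadps exons, the 69-nt exon at chr14:12486525-12486593 was the only one in more than 1 list (lists 2 and 3). The 18-nt exon at chr14:12485641-12485658 and the 147-nt exon at chr14:12457683-12457829 stood in list 2 alone, and the 12-nt exon at chr14:12517804-12517815 in list 1 alone. List 2 therefore held 3 of the 4 and the other lists 1 each. The 69-nt and 18-nt exons lie in the same interval between a 124-nt and a 107-nt exon, 866 bases apart. No annotated coding transcript contains both: 1 contains the 69-nt exon, 2 contain the 18-nt exon and 2 contain neither. The first adds 23 codons and the second 6 codons at the same junction of the mRNA. Counted in different transcripts, this place is 63.1% and 63.6% of the way along the coding sequence. The 147-nt exon is part of 4 of the 5 coding transcripts, and its skipping is annotated in 1 transcript that is outside GENCODE's basic set.

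The longer Cadps exons are shown for features that the choice of members did not use. The 69-nt exon is the only one of the 11 that holds CTGT, the DNA letters of one of the words the study lists for its Sfpq motifs, here in capitals at base 28. The 147-nt exon holds a tandem repeat with a period of 15 nt, in capitals from base 14, within which 26 bases in a row equal the base 15 positions later.
Cadps 69 nt: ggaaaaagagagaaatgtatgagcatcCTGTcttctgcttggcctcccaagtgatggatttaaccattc
Cadps 147 nt: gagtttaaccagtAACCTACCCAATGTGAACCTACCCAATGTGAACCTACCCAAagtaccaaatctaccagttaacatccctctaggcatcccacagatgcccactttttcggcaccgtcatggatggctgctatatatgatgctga

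A second priming gene, Cadps2, had a listed exon at the matching place. Its 120-nt exon (chr6:23328783-23328902, exon 23 of 31, list 2) lies between neighbours that share 47 of 60 bases upstream and 43 of 60 bases downstream with those of the 147-nt Cadps exon, which is also exon 23 of 31. Both exons were in list 2 and in no other list. This pair was noticed after the lists were read.

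Madd (chromosome 2, 91137360 to 91183837, minus strand), whose protein exchanges nucleotide on Rab3, had 3 listed cassette exons. The 60-nt exon at chr2:91163963-91164022 and the 9-nt exon at chr2:91140809-91140817 each stood in lists 1 and 3, and the 63-nt exon at chr2:91155013-91155075 in list 1 alone. No Madd exon stood in list 2. The 9-nt exon, the shortest of the members, adds 3 codons at codon 1552 of 1627, near the end of the protein. The 60-nt exon adds 20 codons and the 63-nt exon 21 codons. Of the coding transcripts that reach all 3 positions, 4 contain none of these exons, 3 contain the 60-nt exon alone, 2 the 60-nt and the 63-nt exon, 2 the 63-nt exon alone and 2 the 63-nt and the 9-nt exon. The 60-nt and the 9-nt exon are never annotated together.

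In the tethering step, Exoc1 (chromosome 5, 76529311 to 76570294, plus strand) had 1 listed exon of 21 nt, in lists 1 and 2. It lies at chr5:76540747-76540767 as exon 5 of 20 and adds 7 codons at codon 139 of 901. The annotation has 1 coding transcript with it and 2 that skip it. Its other alternative exon, of 45 nt, was not listed.

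Among the SNAREs, which carry out membrane fusion, Vti1a (chromosome 19, 55316295 to 55627309, plus strand) had the only member event that stood in all 3 lists. This 21-nt exon at chr19:55387189-55387209 is exon 5 of 9 and adds 7 codons at codon 115 of 224. It is contained in 1 coding transcript and skipped in 2. It has the lowest share of G and C of the 11, at 28.6%. Cassette exons of 27 nt or less in all 3 lists were found in only 2 other genes, Daam1 and Mark2. Standing in all 3 lists was not particular to short exons. In the whole series it was so for 22 of the 643 events and 16 of the 439 cassette exons. Of the 58 listed cassette exons of 27 nt or less, it was so for 3.

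Vti1a also had the single event that is not a cassette exon, an 11-nt alternative donor at chr19:55499305-55499315 in lists 1 and 3. It extends the 62-nt coding exon 8 of 9 into an intron of 124512 nt. The near edge is the annotated end of that exon and the far edge is not an annotated splice site, so this event met the choice of members by 1 edge, whereas the other 11 met it by both. No event inside the 5 genes was left out for want of an edge. A shift of 11 nt is not a multiple of 3. The intronic bases it would add are not shown.

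**Figure D1:**
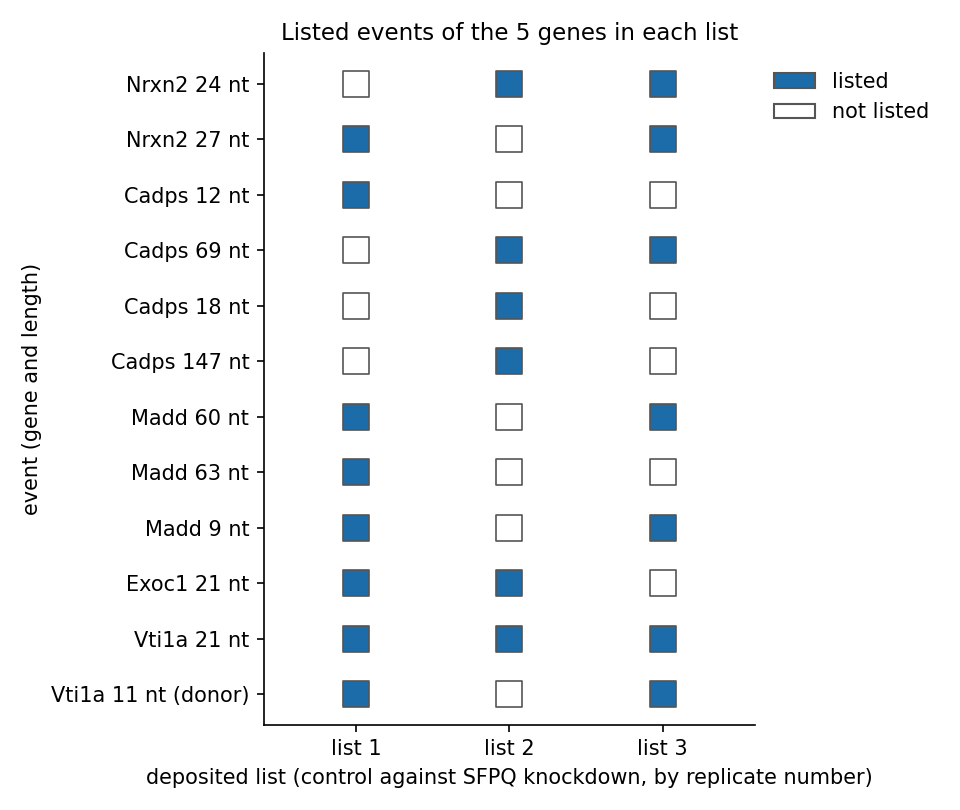
Each row is 1 of the 12 listed events, named by gene and length in nt, and each column is 1 of the 3 deposited lists. Filled squares mark lists that hold the event: the 21-nt exon of Vti1a fills all 3, and Madd has no filled square in list 2.

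The members recurred between lists in different ways. Of the 12 events, 1 stood in 3 lists, 7 in exactly 2 lists and 4 in 1 list, with 8 of them in list 1, 6 in list 2 and 7 in list 3. Lists 1 and 3 shared 5, lists 2 and 3 shared 3 and lists 1 and 2 shared 2. In the whole series 126 of the 643 events (19.6%) stood in more than 1 list. Every member gene had the same event in more than 1 list, which was so in 0.592% of the 20620 multi-exon protein-coding genes. Any event at all was listed in 2.81% of those genes. Because the genes were selected on these lists, nothing about them can be read from these shares. Without list 1, 2 or 3, the events still shared by the remaining lists were 3, 5 and 2.

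All 11 cassette exons of the 5 genes had a length divisible by 3. They are among 270 of the 439 listed cassette exons (61.5%) with such a length. Of the remaining 113 internal coding exons in these 5 genes, 49 (43.4%) had one, and of the 15 alternative ones among these 11 (73.3%) had one. The listed coding cassette exons of other genes had such a length in 77.8% of cases, and those of 27 nt or less in 46 of 46, so this trait was shared with the exons most like the members. The exon began between codons in 3 cases (the 24-nt exon of Nrxn2, the 9-nt exon of Madd and the 21-nt exon of Vti1a), after the first base of a codon in 7 and after the second base in 1. In the annotated coding sequence that carries each exon, 0 stop codons lay before the annotated end. Removing an exon of such a length keeps the frame in any case, and a coding transcript that skips the exon is annotated for each. In silico, 0 stop codons appeared on removal, for all 11 exons.

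The members were short. Their lengths ran from 9 to 147 nt with a median of 24 nt, against a median of 121 nt in the remaining internal coding exons of those genes, 72 nt in the 261 listed coding cassette exons of other genes and 123 nt in all 165989 annotated internal coding exons. Exons of 27 nt or less made up 7 of the 11 (63.6%), 17.6% of the listed coding exons of other genes and 1.05% of all annotated ones. All 11 are annotated as alternative, meaning that another transcript of the gene skips them. So were 77.8% of the listed coding exons of other genes and 10.8% of all annotated ones. Of the listed coding exons of other genes that were 27 nt or less, 43 of 46 (93.5%) were alternative. Over the whole annotation, 53 of 1737 internal coding exons of 27 nt or less were listed as cassette exons (3.05%, 95% Wilson interval 2.34% to 3.97%). Of the 164252 longer ones, 219 were listed (0.133%, 0.117% to 0.152%), and the share over both was 0.164%. These counts include 7 and 4 member exons, and the intervals treat exons as independent. The shares are of annotated exons, and how many of them could be assessed in P19 cells is not known. Among exons annotated as alternative, as all the members are, the share listed was 5.9% (4.5% to 7.69%) for 27 nt or less. For longer ones it was 0.959% (0.824% to 1.12%). These 2 shares were closer in ratio, but not in difference, than those over all annotated exons.

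**Figure D2:**
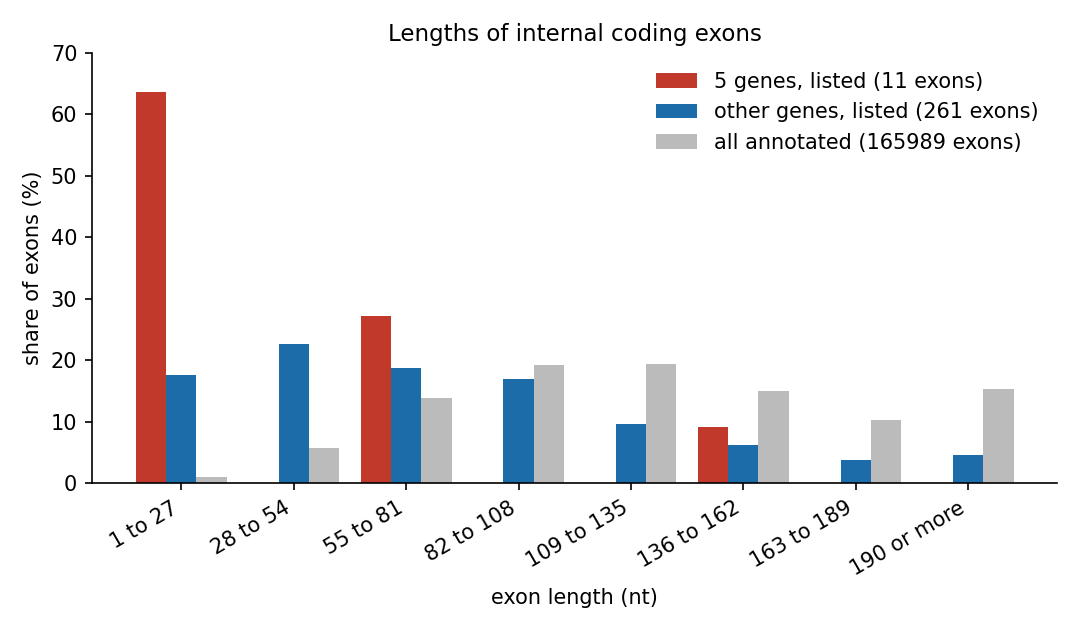
Bars give the share of internal coding exons (y axis, percent) in each length class (x axis, nt) for the 11 listed exons of the 5 genes, the 261 listed exons of other genes and all 165989 annotated exons. The class of 27 nt or less holds 63.6% of the first, 17.6% of the second and 1.05% of the third.

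Within the 5 genes, listing did not take in every exon of this kind. They have 12 annotated internal coding exons of 27 nt or less, of which 7 were listed, and 26 alternative ones, of which 11 were listed. Over all genes, 3.05% of the exons of 27 nt or less were listed. Among alternative exons over all genes, the share was 5.9% at 27 nt or less and 0.959% above it. The 5 genes were chosen for having listed exons, so nothing about them can be read from these counts. The 5 short exons not listed were an 18-nt exon of Nrxn2 that no transcript skips and 4 exons of Cadps, of 11, 13, 18 and 21 nt. The 11-nt and 13-nt models do not keep the frame and border annotated introns of only 5 and 54 nt. Longer alternative exons not listed include those of 90 nt in Nrxn2 and of 54 nt in Madd.

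**Figure D3:**
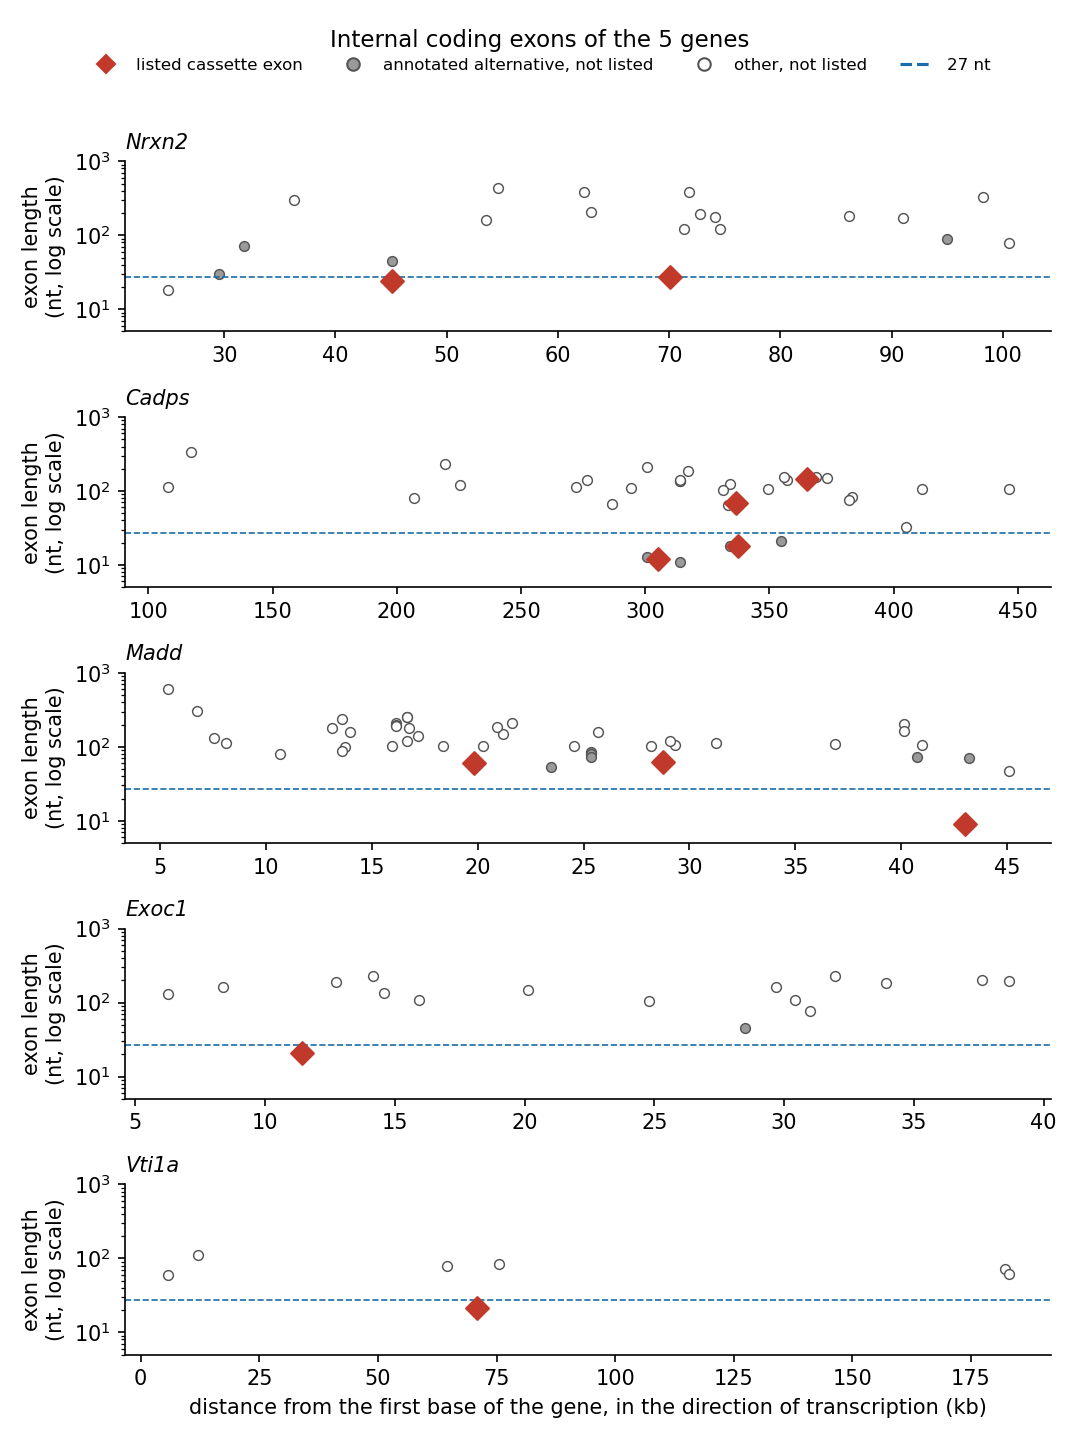
Each point is an internal coding exon of 1 of the 5 genes, placed by its distance from the first base of the gene (x axis, kb) and its length (y axis, nt, log scale). Diamonds are the 11 listed cassette exons, filled circles the 15 alternative exons that were not listed, open circles the rest, and the dashed line marks 27 nt. Exoc1 and Vti1a each have 1 exon below the line and it is listed, whereas 4 of the 6 in Cadps are not.

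At the median, the introns around the members of 27 nt or less were long. The median intron before a member exon was 3322 nt and after it 3363 nt, against 1764 nt and 1870 nt around the remaining internal coding exons of those genes, and 1789 nt and 1949 nt around the listed coding exons of other genes. Around the 7 members of 27 nt or less the medians were 4387 nt and 4574 nt. Around the 4 longer members they were 1865 nt and 1862 nt, close to those of the other exons. The genes also differed in intron length. In Madd the introns around the listed exons ran from 182 to 1938 nt, whereas around the listed exons of Cadps they ran from 2387 to 13009 nt. The 24-nt exon of Nrxn2 had 8543 nt before it and 8410 nt after it.

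**Figure D4:**
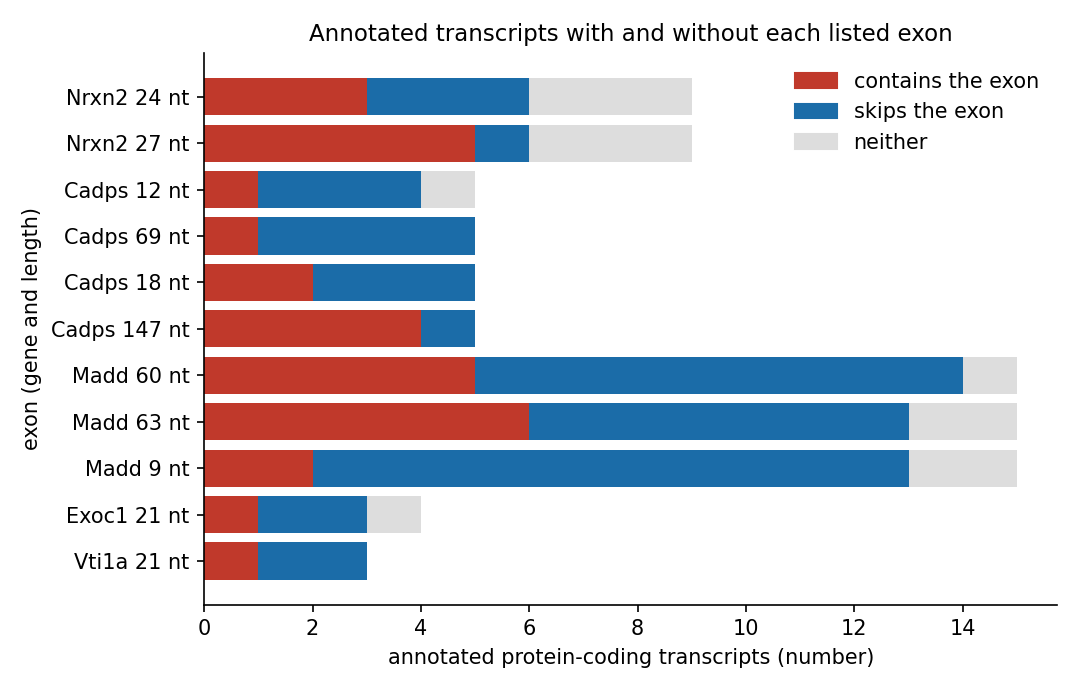
Bars count the annotated protein-coding transcripts (x axis) that contain each listed cassette exon, skip it within an intron, or do neither, for the 11 exons named by gene and length (y axis). The 147-nt exon of Cadps and the 27-nt exon of Nrxn2 are in most transcripts that span them, with 4 and 5 against 1, whereas the 9-nt exon of Madd is in 2 and skipped in 11.

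The words that the methods list for the Sfpq motifs were searched in the exons on the transcribed strand, written as DNA. Those of the first motif are CTGT and CTGA, and those of the second are CTGTA (which contains CTGT) and the same word with its first letter changed, namely ATGTA and also TTGTA, along with the word GTGTA. CTGT was in 1 of the 11 exons, the 69-nt exon of Cadps, and 30.2% of all annotated internal coding exons of 69 nt held it. CTGA was in 4, namely the 12-nt and 147-nt exons of Cadps and the 60-nt and 63-nt exons of Madd. It was in 31.4% of the listed coding exons of other genes and 54.0% of all annotated ones. A word of the first motif was thus in 5 of the 11 (45.5%), as in 49.0% of the listed coding exons of other genes and 74.6% of all annotated ones, which are longer. Of the 7 exons of 27 nt or less, 1 held such a word (the 12-nt exon of Cadps). So did 14 of the 46 listed coding exons of other genes of that length (30.4%) and 18.3% of the 1737 annotated ones. Of the second motif, ATGTA was in the 69-nt exon of Cadps and each of the other words in 0 of the 11. A word of it was in 12.6% of the listed coding exons of other genes and in 26.3% of all annotated ones. Both of these sets have longer exons at the median than the members. On the opposite strand a word of the first motif was found in 2 of the 11 exons. These were CTGT in the 21-nt exon of Exoc1, where it is part of CTGTA, and in the 147-nt exon of Cadps. On that strand, 58.2% of the listed coding exons of other genes and 76.4% of all annotated ones, which are longer, held such a word. The flanking introns were not searched.

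Other genes of these processes were taken from 6 lists of presynaptic and fusion genes. Of the 108 genes besides the members, 7 (6.48%) had a listed event. The share was 2.81% of the 20620 annotated multi-exon protein-coding genes and 5.6% of the 6979 genes with an annotated alternative coding exon. The lists were drawn up with earlier results of these data known. At the active zone, where vesicles dock, 2 of 21 had an event. Erc1, a scaffold protein, had a 67-nt exon in list 1 and a 12-nt exon in list 3, and Cask, a scaffold that binds neurexins, had an 18-nt exon in list 3. In priming and calcium sensing there were 3 of 14, namely Cadps2 above, the calcium sensor gene Syt7 with a 132-nt exon in lists 1 and 2, and the calcium sensor gene Doc2a with a 97-nt exon in list 3. Among the other exocyst genes 1 of 7 was listed, Exoc7, with a 93-nt exon in list 2. Of the vesicle protein genes 1 of 15 was listed, Synj1, a lipid phosphatase of vesicle recycling, with a 24-nt exon in list 3. The Syt7 exon was the only one of these 8 in more than 1 list. Unlike the members, the 67-nt exon of Erc1 and the 24-nt exon of Synj1 are not annotated as wholly coding internal exons. The Doc2a exon is not annotated as alternative, and neither its length nor that of the 67-nt Erc1 exon is a multiple of 3. Besides Madd, 0 of 13 genes of the Rab3 and Rab27 cycle had an event, which allows a share of up to 23.1%. Besides Vti1a, 0 of 38 SNAREs and their regulators did, which allows up to 7.89%. The deposited lists do not show which genes could be assessed in P19 cells. These upper shares take every gene as able to give an event, which was not tested.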

How the data were processed

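RNA from 3 control and 3 SFPQ knockdown samples of P19 cells was sequenced as paired ends from strand-specific libraries, for which the labels and the methods name different kits. Tools named in the submitters' processing notes are cutadapt, Bowtie2 and STAR with mm10, without versions, and the methods name SpliceTrap for splicing. The authors deposited 3 lists of 275, 269 and 262 lines with positions and event types. How an event came to be listed, and which control each list used, is not stated in these sources. Repeated lines were counted once, 1 event with an unreadable start was left out and starts were raised by 1. Each event went to the GENCODE M21 (GRCm38, the assembly of mm10) gene whose edges matched best, and 622 of 643 matched at both edges. Exon positions, introns and neighbours came from the coding transcript with most exons. Motifs were searched in exons alone, in place of the planned exon with 100 intronic bases on each side.

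The members, the gene lists and the rule for named genes (all events of the 5 genes, every listed gene of the 6 lists, and exons of 27 nt or less in all 3 lists) were chosen with earlier results of these data known. No test was made. Of 115 genes in the lists, 113 matched a multi-exon protein-coding gene. Intervals are 95% Wilson intervals for counting error only, and the upper share for a count of 0 takes 3 events. The assignment was tried on exons and introns drawn from the same annotation, where a match at both edges is fixed in advance. Alternative donor and acceptor events were not among them. Python 3.11.15, scipy 1.17.1, numpy 2.4.6 and matplotlib 3.10.9 were used.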

Additional observations from a re-analysis of the deposited data

How the results depend on the processing

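No paired analysis was possible because the lists hold positions with no value per sample. The 12 events became 0 with the start taken as given and 21 when each listed line was counted, and 11 when an overlap with an annotated exon was required, since the donor shift of Vti1a lies in an intron. Events in more than 1 list fell from 8 to between 2 and 5 when a list was left out. The 12 genes of the presynaptic lists with an event became 6 when the same event had to stand in more than 1 list. Both counts include the 5 members, which were chosen for having listed events. Outside the members, 7 of 108 genes had an event, and 1 of their 8 events stood in more than 1 list. Over all multi-exon protein-coding genes, 0.592% had the same event in more than 1 list. The share of all genes with an event rose from 2.81% to 5.6% with genes that have an annotated alternative coding exon as the background. Leaving out any list kept 10 to 12 events, 6 or 7 short exons and the median of 24 nt. Limits of 30 and 51 nt gave the same 7 short exons. With basic transcripts alone, 10 of the 11 exons were alternative. Motif counts with 100 or 200 intronic bases and the pyrimidine share before each exon were not run, for want of intron sequence here. The 1 exon with CTGT became 5 with either word of the first motif (CTGT or CTGA), an alternative chosen after seeing the data. The reads behind each event are unknown, so an exon that was not listed cannot be read as unchanged.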
